A study of Mus musculus with 6 samples.

Results

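Glycolysis and the response to low oxygen were followed through 34 named mouse genes in colon tumours with and without a human IL8 transgene. They comprise the glucose transporters, the enzymes from hexokinase to lactate dehydrogenase, the oxygen-sensing proteins and common hypoxia-inducible targets. The genes were chosen by name, and every probe set (a group of short probes read as 1 value) whose platform annotation gave exactly 1 of these symbols was taken. This found 70 probe sets for 30 of the 34 genes, out of 45101 probe sets on the array. Bnip3l shared its probe sets with a pseudogene, Ero1l is listed under the newer symbol Ero1a, and Eno1 and Gpi1 were not analysed here. Each gene was represented by its brightest probe set over the 6 arrays.

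RNA from colon cancer tumours of CBA/C57BL/6 mice was measured on 6 arrays, 3 from wild type controls and 3 from IL8 transgenic animals. IL8 is a human chemokine that draws neutrophils into tissue. Every animal is labelled male and was kept free of specific pathogens. The sources used here give neither the animals' age, nor the promoter that drives the transgene, nor the way the tumours arose. The labels leave unsaid how many tumours went onto each array. The p-values therefore reflect the spread among these 6 samples alone, part of which may be technical.

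All values are log2 expression values as the authors deposited them, on which a difference of 1 is a doubling. Array medians lay between 3.31 and 3.36. The colon epithelium markers were present, with 11 of 11 genes measured. Their mean level was 10.55 to 11.77 on control and 10.59 to 11.83 on transgenic arrays. Slc26a3 alone fell under 4, at 3.02 on transgenic array 1. The list deviated from the control mean by 0.67, -0.13 and -0.55 on control arrays 1, 2 and 3. On transgenic arrays 1, 2 and 3 it deviated by -0.51, 0.63 and 0.73. The sex labels did not hold on all arrays: Xist, the RNA of the inactive X chromosome, was at 12.27 to 12.89 on the transgenic and 2.33 to 2.64 on the control arrays, while the Y-linked gene Eif2s3y was at 2.39 to 2.71 and 9.99 to 10.22. This split coincides with the transgene, so genotype and the presence of Xist cannot be told apart in any result. Transgenic array 2 carried squamous epithelium genes, with a mean marker level of 10.16 against 3.87 to 4.59 on control arrays and 4.13 and 4.50 on transgenic arrays 1 and 3 (11 of 12 markers with a probe set, Ivl under 4 on every array). Transgenic array 1 had the smallest difference between the 3′ and 5′ Gapdh control probe sets, 0.71 against 0.87 to 0.96 elsewhere, and its proliferation genes had a mean deviation from the controls of -1.13.

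Glycolysis splits glucose into pyruvate in the cytosol, and lactate dehydrogenase regenerates the NAD+ that it consumes. When oxygen is short, the prolyl hydroxylases encoded by Egln1 and Egln3 stop marking HIF1A for VHL-directed breakdown, and HIF1A then raises the transcription of glucose transporters, glycolytic enzymes and genes such as Pdk1, Bnip3 and Adm. HIF binds DNA at a short core sequence, ACGTG or GCGTG. Colon tumours are known for high glucose use.

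Examples were taken from the known HIF target genes described below, 5 with a higher transgenic mean and Hk2 with a lower one. The 250 bases before the annotated start of these 6 members are shown. They come from RefSeq (GRCm38.p6), run 5′ to 3′ on the gene's own strand, and have every ACGTG or GCGTG on either strand in capitals (the reverse strand reads CACGT or CACGC, and CACGTG counts on both strands).
Slc2a1, chr4:119108495-119108744, plus strand: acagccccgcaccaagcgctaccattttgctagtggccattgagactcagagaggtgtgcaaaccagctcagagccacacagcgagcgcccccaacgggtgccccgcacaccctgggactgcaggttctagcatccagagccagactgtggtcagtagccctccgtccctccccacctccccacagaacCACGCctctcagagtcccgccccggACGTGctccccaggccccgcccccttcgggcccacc
Pgk1, chrX:106186850-106187099, plus strand: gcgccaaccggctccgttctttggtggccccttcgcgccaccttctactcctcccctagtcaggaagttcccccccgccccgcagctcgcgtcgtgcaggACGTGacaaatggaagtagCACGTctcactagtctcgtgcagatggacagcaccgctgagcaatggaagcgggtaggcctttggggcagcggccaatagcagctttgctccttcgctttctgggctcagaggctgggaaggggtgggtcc
Egln3, chr12:54203875-54204124, minus strand: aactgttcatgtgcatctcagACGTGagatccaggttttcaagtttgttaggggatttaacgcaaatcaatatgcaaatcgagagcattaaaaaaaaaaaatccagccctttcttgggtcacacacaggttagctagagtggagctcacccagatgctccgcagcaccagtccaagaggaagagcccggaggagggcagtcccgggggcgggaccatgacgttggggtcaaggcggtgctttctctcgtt
Bnip3, chr7:138909507-138909756, minus strand: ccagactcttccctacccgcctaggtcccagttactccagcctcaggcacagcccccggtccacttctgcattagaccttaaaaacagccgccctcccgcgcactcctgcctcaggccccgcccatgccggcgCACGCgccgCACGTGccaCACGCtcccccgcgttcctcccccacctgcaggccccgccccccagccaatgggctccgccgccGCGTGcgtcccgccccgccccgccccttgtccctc
Ankrd37, chr8:45999851-46000100, minus strand: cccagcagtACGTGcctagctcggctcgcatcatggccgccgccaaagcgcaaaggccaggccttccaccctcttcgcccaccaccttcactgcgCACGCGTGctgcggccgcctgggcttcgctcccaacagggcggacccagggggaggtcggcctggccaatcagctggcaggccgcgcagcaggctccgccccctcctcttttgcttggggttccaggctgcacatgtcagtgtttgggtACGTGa
Hk2, chr6:82774455-82774704, minus strand: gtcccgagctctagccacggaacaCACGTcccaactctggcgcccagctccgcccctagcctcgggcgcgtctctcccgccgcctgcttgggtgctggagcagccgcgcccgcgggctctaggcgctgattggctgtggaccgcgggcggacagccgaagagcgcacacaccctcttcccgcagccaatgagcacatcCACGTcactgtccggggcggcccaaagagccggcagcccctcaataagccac
The Slc2a1 window holds 2 such matches, that of Pgk1 2, that of Egln3 1, that of Bnip3 5, that of Ankrd37 4 and that of Hk2 2. Not every HIF target is shown: the windows of Pdk1, which had the largest difference (0.79), hold 1 and 0. Some members with a small or negative difference had as many matches. A window of Ldha holds 5 (difference 0.10), one of Pfkfb3 holds 3 (difference -0.81) and that of Adm holds 2 (difference -0.13). Others had few or none: another window of Ldha holds 1, and those of Vhl (difference -0.33) and Tpi1 (difference 0.16) hold 0. Matches and differences were not compared over all members. Windows were found for 30 of the 34 members, some with several starts. At least 1 match lay in 34 of their 43 windows (79.1%), against 38.6% of all 32851 windows in the table. By motif, ACGTG lay in 46.5% of member windows and 16.6% of all windows, and GCGTG in 53.5% and 28.2%. A match describes the letters only, and the members were picked for their known roles, so the excess is no result of these tumours.

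None of the glycolysis and hypoxia genes passed the test for a difference between control and transgenic tumours, which does not show that they were unchanged. Of the 30 genes with probe sets, 26 could be tested, meaning that a log2 value of at least 4 was reached on at least 3 arrays and that the probe set was no platform control. With limma and Benjamini-Hochberg adjustment over 19310 probe sets, 0 of the 26 members had an adjusted p under 0.05, where 0.0486% of all 10289 genes tested (1 probe set each) and 0.057% of all tested probe sets did. Adjusted p-values of the members ran from 0.806 to 0.989. An unadjusted p under 0.05 was reached by 2 members, Hk1 and Pdk1, where 5.82% of all genes reached it.

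The means nevertheless leaned upward. The transgenic mean was the higher one in 17 of 26 members (65.4%) and in 46.2% of all genes tested. The median difference was 0.14 over the members and -0.025 over all genes. Differences of at least 0.5 in size numbered 7 upward (Hk1, Pdk1, Pfkl, Egln3, Ankrd37, Bnip3 and Slc2a1) and 2 downward (Pfkfb3 and Aldoc), where 7.64% of all genes reached that size upward and 9.79% downward. The 3 transgenic arrays all lay above the 3 control arrays for 5 members (19.2%), Hk1, Pfkl, Aldoa, Pgk1 and Ankrd37, where 4.77% of all genes did so, and all lay below for 1, Vhl, where 6.75% did. The list was assembled from known biology, but with earlier results of these data known. These counts therefore only describe the list, and it was not tested as a list.

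**Figure D1:**
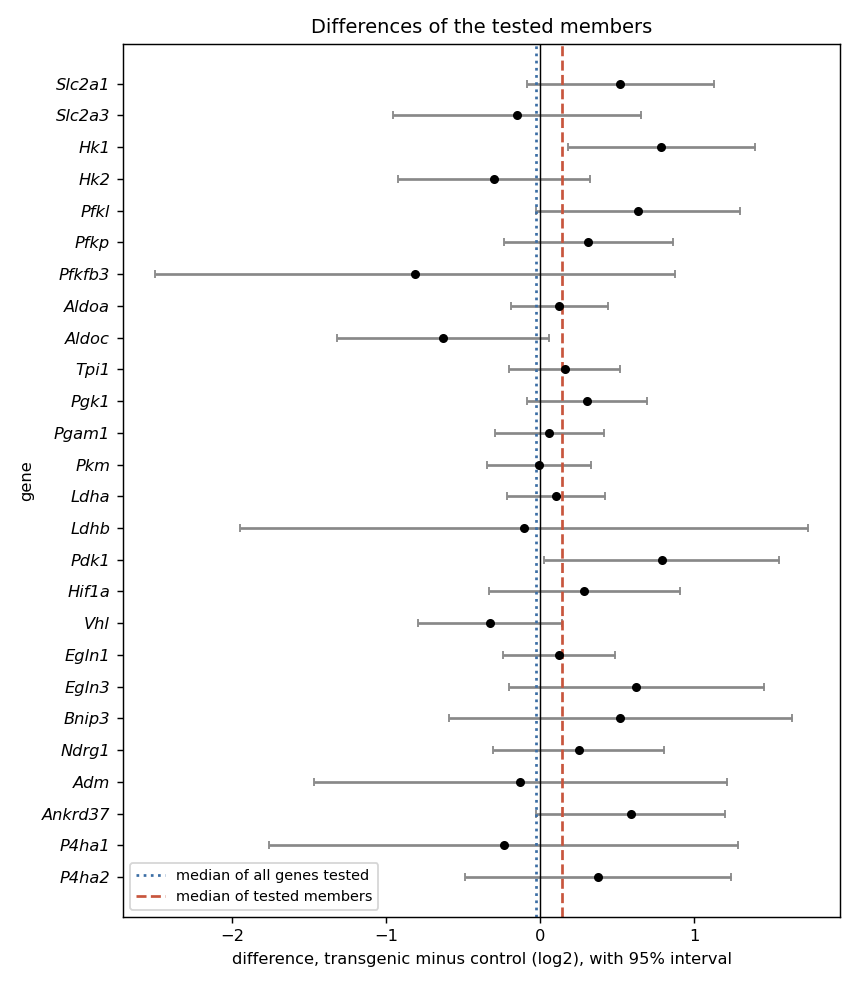
Difference between transgenic and control means (log2, horizontal axis) for each of the 26 tested members, with the 95% interval of the limma fit as bars. The dashed line marks the members' median of 0.14 and the dotted line that of all genes at -0.025. Only the Hk1 and Pdk1 intervals lie wholly above 0, before adjustment.

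Among genes of glucose entry and the preparatory steps, 10 of 12 were tested, with 6 higher and 4 lower means and a median difference of 0.14. Slc2a1, the main glucose transporter of growing cells, was at 11.93, 11.19 and 11.40 on control arrays and at 12.29, 12.04 and 11.75 on transgenic arrays. The groups overlapped only through control array 1, which lay above transgenic array 3. The difference was 0.52 ± 0.25 (SE), with a 95% interval of -0.09 to 1.13. Slc2a3, the high-affinity transporter of neurons and leukocytes, lay close to background, at 3.83, 4.41 and 4.98 on control and 4.61, 3.92 and 4.24 on transgenic arrays. Its groups overlapped throughout, and the mean difference of -0.15 took the other sign without control array 3 (0.13) or transgenic array 2 (0.016).

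Hexokinase traps glucose as glucose 6-phosphate, and its genes Hk1 and Hk2 differed in opposite directions. Hk1, the broadly expressed form, was at 8.38, 7.95 and 7.73 in control and 8.60, 9.19 and 8.63 in transgenic tumours. All 3 transgenic arrays were above all 3 controls, transgenic array 2 the most. Its difference was 0.79 ± 0.25 (SE), a fold of 1.73, with a 95% interval of 0.18 to 1.40, the smallest unadjusted p of the members (0.0193 with limma) and an adjusted p of 0.806. Hk2, the inducible form and a known HIF target, was at 12.15, 11.45 and 11.23 in control and 11.24, 11.34 and 11.35 in transgenic tumours. Control array 1 stood above the other 5 arrays, which were all close together. The Hk2 difference of -0.30 (95% interval -0.92 to 0.33) was -0.026 without that array.

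Phosphofructokinase commits the sugar to glycolysis, and its liver-type gene Pfkl lay at 7.53, 7.10 and 6.49 on control and 7.62, 7.69 and 7.72 on transgenic arrays. The transgenic arrays were tightly grouped above a wider spread of controls, with a difference of 0.64 ± 0.27 (SE). Without control array 3, the lowest, that difference was 0.36. The platelet-type gene Pfkp was at 10.72, 10.21 and 9.94 in control and 10.54, 10.71 and 10.56 in transgenic tumours. Its groups overlapped through control array 1, and the difference of 0.31 ran from 0.14 without control array 3 to 0.53 without control array 1. The muscle-type gene Pfkm reached 4 on transgenic array 2 alone, at 4.02, and was not tested.

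Pfkfb3, the bifunctional enzyme that makes the phosphofructokinase activator fructose 2,6-bisphosphate, had the lowest difference of all tested members, and it rested on a single array. Values were 8.40, 7.68 and 8.101 in control and 8.50, 5.67 and 7.57 in transgenic tumours. Transgenic array 2 lay far under the others, while transgenic array 1 was the highest of all. The difference was -0.81 ± 0.70 (SE), -0.022 without transgenic array 2 and -1.44 without transgenic array 1. Array 2 is the one with squamous epithelium genes, whose part in this value was not tested.

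The aldolases diverged as well. Aldoa, the main aldolase, was at 12.45, 12.41 and 12.36 in control and 12.49, 12.51 and 12.58 in transgenic tumours, separated by a narrow gap, with a difference of 0.12 ± 0.13 (SE). Aldoc, the brain-type form, was at 9.47, 9.95 and 10.55 in control and 9.25, 9.35 and 9.47 in transgenic tumours. The groups just touched at the value of control array 1, and the Aldoc difference of -0.63 ± 0.28 (SE) was -0.35 without control array 3. Tpi1, triosephosphate isomerase, differed by 0.16 with array values between 12.18 and 12.55.

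**Figure D2:**
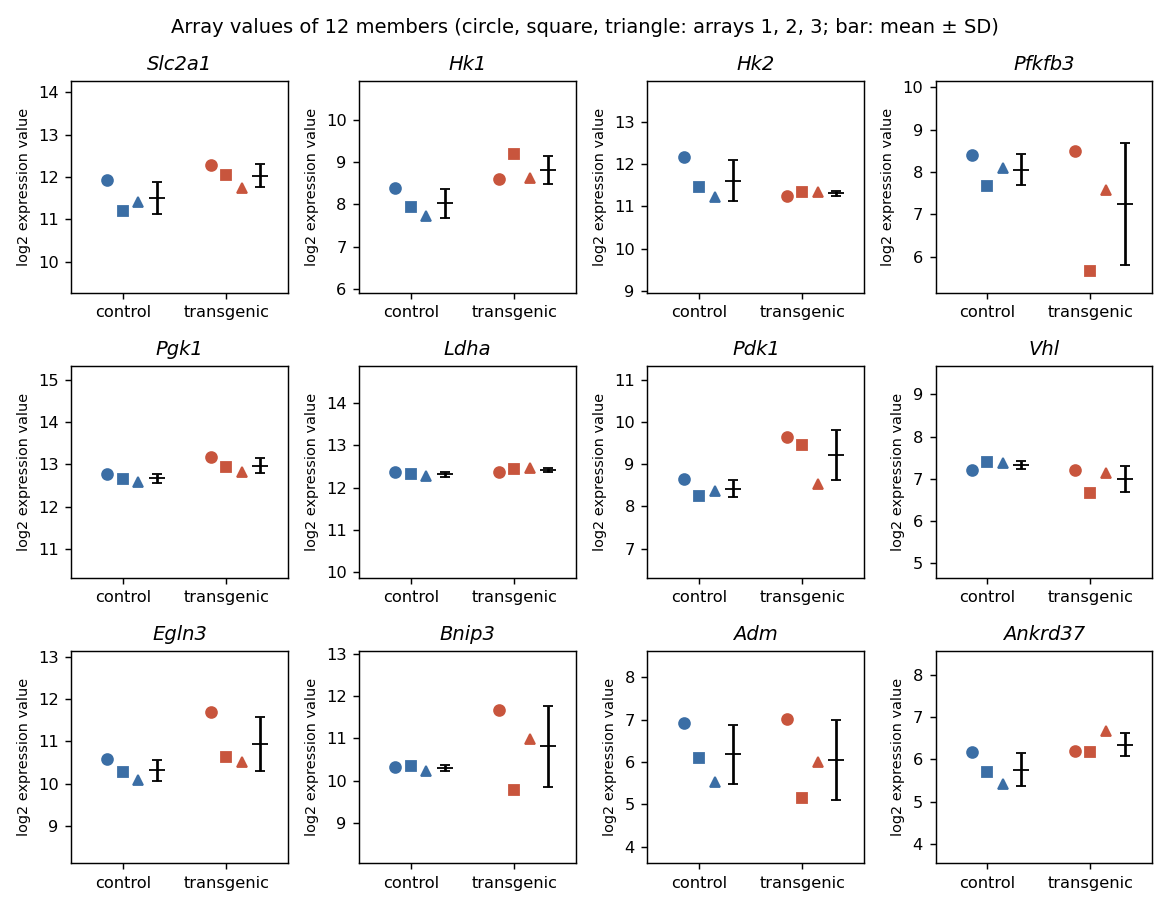
Log2 expression values of 12 members on each array, with circles, squares and triangles for arrays 1, 2 and 3 of a group and a bar for the mean and SD (n = 3 per group). Every panel spans the same range of log2 units around the gene's mean. Hk1, Pgk1 and Ankrd37 separate the groups upward and Vhl downward. Pfkfb3 has 1 low transgenic array at 5.67 and Egln3 has 1 high transgenic array at 11.68. The transgenic arrays of Bnip3 lie on both sides of the controls, from 9.78 to 11.68.

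Of the payoff steps, which return ATP, Pgk1, Pgam1 and Pkm were tested. Pgk1, phosphoglycerate kinase, was at 12.78, 12.65 and 12.58 in control and 13.17, 12.94 and 12.81 in transgenic tumours. Transgenic array 3 lay only just above control array 1, so the groups did not overlap by a small margin. The difference was 0.30 ± 0.16 (SE), a fold of 1.23 with a 95% interval of -0.08 to 0.69. The gene lies on the X chromosome, and Xist was present on the same 3 arrays; whether this bears on Pgk1 was not tested. Pgam1, phosphoglycerate mutase, differed by 0.060 (values 11.51 to 11.81), and by -0.023 without transgenic array 3. Pkm, pyruvate kinase, differed by -0.0080 (values 10.49 to 10.70), the smallest difference of the 26.

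Gapdh, the dehydrogenase of this stage and a common reference gene, was read here by 3 platform control probe sets only, which were left out of the test. The brightest of them was at 13.20, 13.21 and 13.24 in control and 13.32, 13.13 and 13.21 in transgenic tumours. The transgenic arrays spanned the control values on both sides. Means were 13.22 ± 0.02 and 13.22 ± 0.10 (SD, n = 3 each). A further probe set that Gapdh shares with other loci differed by -0.038 (limma adjusted p 0.966). Eno2, the neuronal enolase, stayed at 2.46 or less on every array.

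Pyruvate is turned into lactate or sent to the mitochondria, and Pdk1, the kinase that closes the mitochondrial route by inhibiting pyruvate dehydrogenase, had the largest difference of the 26 members, marginally above that of Hk1. Values were 8.65, 8.26 and 8.36 in control and 9.64, 9.45 and 8.54 in transgenic tumours. Transgenic arrays 1 and 2 stood above every control, while array 3 lay among them. The difference was 0.79 ± 0.31 (SE), with a 95% interval of 0.03 to 1.55 and a limma adjusted p of 0.806. Leaving out transgenic array 1 gave 0.57 and leaving out transgenic array 3 gave 1.13. In the latter setting the limma adjusted p was 0.231, the smallest of any member in any setting. The other tested Pdk1 probe sets had 95% intervals that included 0 (-0.08 to 1.98 and -0.34 to 1.14). At the second of these, transgenic array 1 was the lowest of the 6 arrays (6.09), and transgenic arrays 2 and 3 the highest (7.14 and 6.88).

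Ldha, the lactate dehydrogenase subunit that favours lactate formation, was nearly level across the tumours, at 12.38, 12.31 and 12.27 in control and 12.37, 12.45 and 12.45 in transgenic samples. The groups overlapped, and the difference of 0.10 ± 0.13 (SE) has a 95% interval of -0.22 to 0.42. Ldhb, the subunit of oxidative tissues, had the widest interval of the 26 (-1.95 to 1.74), with values of 5.12, 6.89 and 6.34 in control and 6.21, 4.56 and 7.26 in transgenic tumours. Its difference of -0.11 became 0.62 when transgenic array 2 was left out, 0.28 when control array 2 was and 0.0058 when control array 3 was. Slc16a3, the lactate exporter MCT4, stayed under 4 on every array (2.81 to 3.69) and was not tested.

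All 4 oxygen-sensing genes were measured, 3 with higher and 1 with lower transgenic means. Hif1a, the oxygen-regulated subunit of HIF, was at 11.79, 11.17 and 11.49 in control and 11.80, 12.12 and 11.38 in transgenic tumours. The groups overlapped, with transgenic array 3 lower than 2 of the controls. The Hif1a difference of 0.29 ± 0.26 (SE) became 0.11 when transgenic array 2 was left out and 0.48 when array 3 was. HIF1A is controlled mostly as a protein, which these arrays do not measure.

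Vhl, the adaptor that directs hydroxylated HIF1A to breakdown, was the single member with every transgenic array under every control. It was at 7.21, 7.40 and 7.37 in control and 7.20, 6.66 and 7.14 in transgenic tumours. The gap between transgenic array 1 and control array 1 was very small. The difference was -0.33 ± 0.19 (SE), and -0.15 without transgenic array 2.

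The hydroxylase genes Egln1 and Egln3, themselves raised by HIF in a known feedback, were unequal. Egln1 was at 9.13, 9.34 and 9.03 in control and 9.37, 9.28 and 9.21 in transgenic tumours, with overlap and a difference of 0.12 that ran from 0.053 without control array 3 to 0.21 without control array 2. Egln3 was at 10.57, 10.28 and 10.09 in control and 11.68, 10.62 and 10.51 in transgenic tumours. Transgenic array 1 stood apart, and array 3 lay under control array 1. The Egln3 difference was 0.62 ± 0.34 (SE), and 0.25 without transgenic array 1.

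The remaining hypoxia-inducible members spread most widely. Within groups their median SD was 0.45 in control and 0.70 in transgenic tumours, against 0.19 and 0.30 for all genes tested, and against 0.10 and 0.14 for the payoff enzymes. Bnip3, a mitochondrial protein of mitophagy, was at 10.32, 10.35 and 10.23 in control and 11.68, 9.78 and 10.99 in transgenic tumours. The controls were nearly identical, while the transgenic arrays lay on both sides of them. The Bnip3 difference of 0.52 ± 0.46 (SE) became 0.092 when transgenic array 1 was left out and 1.04 when array 2 was.

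Adm, the vasodilator peptide adrenomedullin, was at 6.92, 6.10 and 5.52 in control and 7.02, 5.14 and 6.00 in transgenic tumours. Array 1 was the highest in both groups, and the groups overlapped completely. Its difference of -0.13 was -0.61 when transgenic array 1 was left out, 0.33 when transgenic array 2 was and 0.24 when control array 1 was. Ankrd37, an ankyrin repeat protein and HIF target, was at 6.18, 5.70 and 5.41 in control and 6.19, 6.19 and 6.67 in transgenic tumours. The groups were separated by a very small gap between control array 1 and transgenic arrays 1 and 2, and the difference was 0.59 ± 0.25 (SE) with a 95% interval of -0.03 to 1.20.

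Ndrg1, a stress-responsive differentiation gene, was at 10.20, 10.86 and 10.86 in control and 11.07, 10.73 and 10.87 in transgenic tumours. Only control array 1 was low, and the difference of 0.25 was 0.030 without it. P4ha1 and P4ha2 encode catalytic subunits of the collagen prolyl hydroxylase. P4ha1 differed by -0.24 with values from 5.64 to 7.53, and by 0.13 without either transgenic array 1 or control array 1. P4ha2 differed by 0.38 with values from 6.52 to 7.63, with 0.19 when transgenic array 1 was left out and 0.67 when array 2 of either group was.

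**Figure D3:**
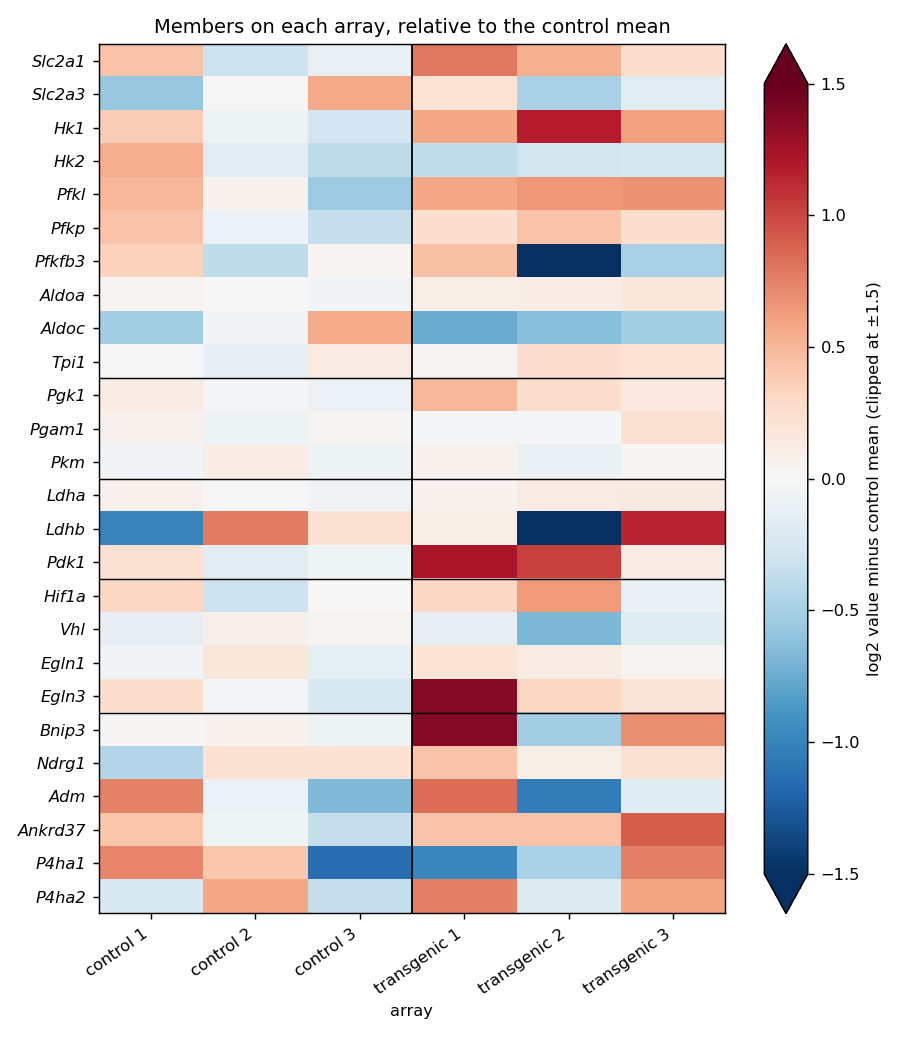
Log2 value of each of the 26 tested members on each array minus the gene's control mean, in colour, clipped at 1.5 in both directions; horizontal lines separate the roles (glucose entry and preparatory steps, payoff steps, pyruvate and lactate, oxygen sensing, other hypoxia-inducible genes). Transgenic array 1 is the highest array for 10 members and control array 3 the lowest for 12.

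Seen by array, the members did not move as a block with the transgene. Averaged over the 26 genes, transgenic arrays 1, 2 and 3 deviated from the controls' mean by 0.32, -0.086 and 0.21. Control arrays 1, 2 and 3 deviated by 0.10, 0.020 and -0.12, so transgenic array 2 lay within the control range. Transgenic array 1 was the highest of the 6 arrays for 10 members (38.5%), where it was so for 23.2% of all genes. Control array 1 was the highest for 2, Hk2 and Pfkp, where it was so for 5.88% of all genes. Transgenic array 3 was the highest for 7 (26.9%), where it was so for 7.25% of all genes. Control array 3 was the lowest for 12 (46.2%), where it was so for 14.4% of all genes. Transgenic array 2 was the lowest for 6 members, Pfkfb3, Pkm, Ldhb, Vhl, Bnip3 and Adm (23.1%), close to its share of 27.6% among all genes.

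By role, transgenic array 1 lay above the control mean in every set, by 0.19 for glucose entry and preparatory steps, 0.17 for payoff steps, 0.46 for pyruvate and lactate, 0.44 for oxygen sensing and 0.47 for the other hypoxia-inducible genes. On transgenic array 2 the same sets lay at -0.066, 0.052, -0.13, 0.10 and -0.29. On transgenic array 3 they lay at 0.074, 0.13, 0.46, -0.011 and 0.50, so this array was as high as array 1 in the pyruvate and lactate set and in the other hypoxia-inducible set, and lay near the control mean for oxygen sensing. The other hypoxia-inducible genes also varied among controls, from -0.39 on control array 3 to 0.21 on control array 1.

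Marker levels of other cell types differed across the same arrays. Neutrophils rely heavily on glycolysis, and the neutrophil markers had a mean level of 5.26 to 5.43 on control and 5.35 to 5.93 on transgenic arrays. Of 12 markers 11 were on the array, with Camp, Elane, Mpo, Cxcr2 and Mmp8 under 4 on every array. The 4 tested markers lay 1.02, 0.43 and 0.14 over the control mean on transgenic arrays 1, 2 and 3. Of these, S100a8, S100a9 and Ltf had higher transgenic means and Lcn2 a lower one (difference -1.77). Among untested markers Csf3r was lower (-0.57) and Ngp higher (1.20), each without overlap. The macrophage markers, all 10 measured, had mean levels of 8.60 to 9.16 and 7.15 to 8.51, lowest on transgenic array 2. The fibroblast markers, all 7 measured, had mean levels of 10.35 to 10.46 and 8.94 to 10.37, with a deviation of -1.46 on transgenic array 1. Enteroendocrine and neural markers had mean levels of 3.65 to 4.74 and 3.52 to 6.26, with Elavl4, Tubb3 and Uchl1 under 4 on every array. The 6 smooth muscle markers had mean levels of 5.74 to 6.58 on control arrays and of 5.34, 9.29 and 8.12 on transgenic arrays 1, 2 and 3. The 6 endothelial markers had mean levels of 4.80 to 5.12 and 4.45 to 4.82. The part of these cell types in the member values was not tested, and in whole tumours fewer cells of a type and less RNA per cell cannot be told apart.

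**Figure D4:**
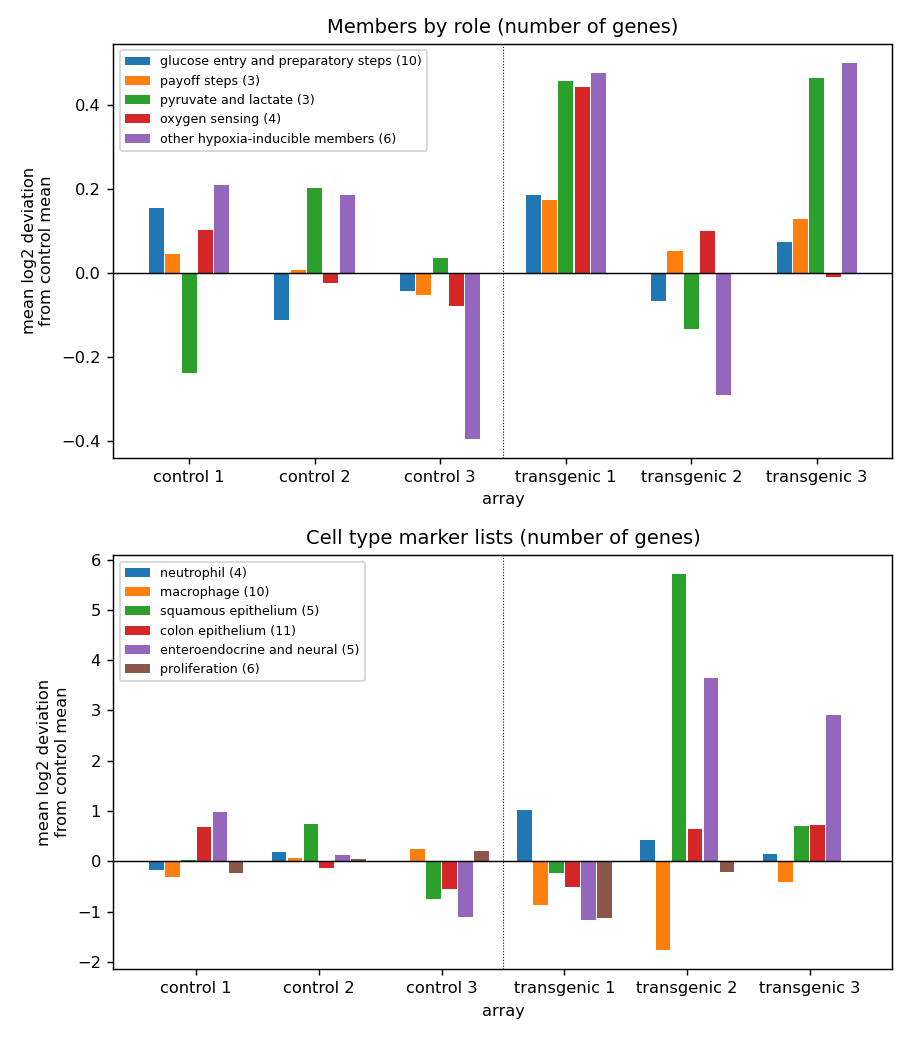
Mean log2 deviation from the control mean on each array for the members by role (upper panel) and for 6 cell type marker lists (lower panel, wider scale), with the number of tested genes in brackets. Among the members transgenic array 1 is above 0 in every role; in the lower panel the squamous epithelium list stands at 5.71 on transgenic array 2.

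Different probe sets of a gene gave the same direction. Of the 70 member probe sets, 49 were tested, 37 with a higher and 12 with a lower transgenic mean, and 16 lay under 4 on every array. All 11 members with more than 1 tested probe set had the same sign at each of them. Separation of the groups was less uniform. For Pfkl and Aldoa the groups were separate at the brightest probe set but overlapped at other tested ones. For Egln1 and Tpi1 they overlapped at the brightest probe set but were separate at another tested one. Pdk1 had the widest spread, 0.40 to 0.95 over 3 probe sets, while the 3 of Slc2a1 gave 0.47 to 0.54, the 3 of Pgk1 0.26 to 0.30, the 2 of Egln3 0.60 to 0.62 and the 5 of Aldoa 0.097 to 0.18. Probe sets of a gene read the same RNA and are not independent.

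Of the 4 genes left out by the naming rule, Bnip3l and Ero1l could be read from other probe sets. For Bnip3l, a partner of Bnip3 in mitophagy, the 3 probe sets shared with its pseudogene differed by 0.13, 0.41 and 0.40. Ero1a, the oxidase formerly called Ero1l, was at 9.99, 9.08 and 8.90 in control and 10.74, 9.43 and 9.78 in transgenic tumours at its brightest probe set. Transgenic array 1 was again the highest, control array 1 lay above both other transgenic arrays, and the difference was 0.66 ± 0.43 (SE). At its other tested probe set the difference was 0.20 ± 0.34 (SE), with control array 1 the highest at 9.65.

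In the wider pathway 0 of the genes tested had a limma adjusted p under 0.05. Of other glycolysis and gluconeogenesis genes, 12 of 22 were tested, 11 with a higher and 1 with a lower mean and a median difference of 0.16. Pgm1, phosphoglucomutase, was at 8.60, 8.23 and 8.203 in control and 9.24, 8.69 and 8.68 in transgenic tumours, with no overlap. Fbp2, the muscle fructose bisphosphatase, differed by 0.64. Pck1, the entry enzyme of gluconeogenesis, differed by 1.66, with 6.47 and 6.68 on transgenic arrays 2 and 3 and 4.76 or less on all others.

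Of genes for the fate of pyruvate and lactate, 12 of 15 were tested, 9 with higher and 3 with lower means. Pdk4, the kinase tied to fasting and fat use, was at 5.42, 7.26 and 6.92 in control and 5.49, 3.26 and 4.99 in transgenic tumours. Only transgenic array 1 exceeded a control, and the difference was -1.95, opposite in sign to that of Pdk1. The pyruvate dehydrogenase complex genes Pdhx and Dld differed by 0.38 and 0.35, both without overlap. In the pentose phosphate pathway, which branches from glucose 6-phosphate, 6 of 7 genes were tested and 5 had lower means, with a median of -0.16. Taldo1, transaldolase, differed by -0.22, Rpe by -0.34 and Rpia by 0.23.

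Other hypoxia-inducible genes were divided, with 15 of 28 higher and 13 lower and a median of 0.055, and 5 higher without overlap, where 4.77% of all genes were. Tfrc, the transferrin receptor, was at 12.29, 11.85 and 12.01 in control and 12.61, 12.92 and 13.04 in transgenic tumours, a difference of 0.81. Bhlhe40, a transcriptional repressor, differed by 0.49 without overlap. Car9, the carbonic anhydrase of hypoxic tumour cells, was at 9.36, 8.28 and 7.88 in control and 10.01, 10.12 and 9.03 in transgenic tumours. Control array 1 lay above transgenic array 3, and the difference was 1.21. Vegfa, the angiogenic growth factor, and Hmox1 were picked after their values were seen. Vegfa was at 4.52, 4.55 and 4.45 in control and 5.58, 4.56 and 5.18 in transgenic tumours, near background. Hmox1 had the lowest difference of the 13 lower genes, -1.31, with overlapping groups.

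HIF subunits and regulators had 7 of 12 higher and 5 lower means and a median of 0.033. Arnt, the constant partner of HIF1A, differed by 0.13, and Siah2, a ubiquitin ligase for the hydroxylases, by -0.48. Arnt2 differed by -1.91, with 3.05 on transgenic array 2 and 6.74 or more on the other arrays.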

How the data were processed

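Colon tumour RNA from 3 control and 3 transgenic mice was analysed on 1 array each, grouped by title. The deposited values are log2 expression values that the authors made with GCRMA, which corrects background and summarises probes, per the submitters' processing notes; the sources used here do not give its version, and the log2 scale was read from the values. They were used as deposited. Background correction compresses low values, so those under 4 have little meaning.

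Gene names came from the platform annotation: 34958 of 45101 probe sets had 1 symbol, 932 several and 9211 none listed. Probe sets with a value of at least 4 on at least 3 arrays were tested, without the 64 platform controls (19310 tested). Differences are transgenic minus control, tested two-sided by limma's moderated linear model (version 3.58.1, R 4.3.3) with Benjamini-Hochberg adjustment over all tested probe sets and a threshold of 0.05. The procedure was tested on simulated data with 1 common SD for all probe sets and with differences larger than those of the members. That test does not show whether differences of the members' size would be found. The number of arrays limits the precision. Values on every array are given for the main pathway genes of a fixed list and for the 10 members with the smallest unadjusted limma p. Of the fixed list, Slc16a3 is given as a range and Eno1 was not analysed. Of each further pathway list up to 3 genes with the smallest limma p are named. Array values of Aldoa, Ldhb and Ero1a were added after they were seen. The members and lists were chosen with earlier results of these data known.

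Alternatives were no filter, a filter at 6, quantile normalization, median centring, a trended and robust prior, array quality weights, the replicate block, a floor of 4 for low values, a looser adjusted p of 0.1, averaging a gene's probe sets and leaving out each array. The count of members with a higher mean was tracked after the data had been seen.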

Additional observations from a re-analysis of the deposited data

How the results depend on the processing

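With limma, 0 members passed in every setting run. The count of all probe sets passing was 11 and ran from 8 to 12 over the alternatives, with 8 to 11 when 1 array was left out. Probe sets of Xist, Eif2s3y, Kdm5d and Uty were among the 11. The members' median difference of 0.14 stayed between 0.13 and 0.19, and the count of members with a higher transgenic mean, 17, between 16 and 21.

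The sign held in every setting for 20 of the 26 members. With array quality weights Ldhb differed by 0.37 and P4ha1 by 0.059, and with median centring Pkm differed by 0.0034. With 1 array left out, Slc2a3 ran from -0.44 to 0.13, Pgam1 from -0.023 to 0.10, Pkm from -0.045 to 0.050, Ldhb from -0.73 to 0.62, Adm from -0.61 to 0.33 and P4ha1 from -0.81 to 0.13. The cause was not tested.

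The replicate block (pairing arrays by number) left 8 probe sets and 0 members. For arrays of the same number, the correlations of their deviations from the group means were -0.27, -0.28 and -0.051 for numbers 1, 2 and 3. For arrays of unlike number they ran from -0.064 to 0.30. Deviations within a group of 3 sum to 0, and 1 unusual array can set them. These correlations therefore cannot decide whether arrays of the same number share more than the number.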
